A study of Mus musculus with 2 samples.

Results

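Ly6c2-positive CD8 T cells were 905 of the 32976 cells that passed the quality limits in a single-cell study of RM-1 tumours, 504 in a vehicle library and 401 in an RP-6306 library. RM-1 is a mouse prostate cancer line, grown here under the skin of C57BL/6 mice whose genotype is labelled WT, and RP-6306 inhibits PKMYT1, a kinase that restrains CDK1 until cells are ready for mitosis. Both groups differed by treatment alone as far as the labels say: vehicle or RP-6306, with tumours taken on day 10 of treatment. CD45+ cells had been sorted and mixed with tumour cells at 3 to 1, so cell shares of the whole library reflect that mix, and the labels give neither age nor sex of the mice. There was 1 library per group, so every difference between vehicle and RP-6306 is one between 2 libraries, with no replicate check and no test, and all intervals are exact 95% intervals for counting error only.

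A cell was taken when it had 500 or more unique molecular identifiers (UMIs, which count captured RNA molecules), 300 or more genes and no more than 15% of UMIs from mitochondrial genes. It also needed at least 1 UMI of Cd3d, Cd3e and Cd3g together, at least 2 of Cd8a and Cd8b1 together and at least 2 of Ly6c2. Cells with any Cd4, Foxp3, Cd79a, Ms4a1 or Ebf1 UMI, with more than 1 Krt8 and Krt18 UMI, more than 1 Lyz2 UMI, or 2 or more Ifit1 and Ifit3 UMIs were left out. The same rule without its Ly6c2 and Ifit terms is called the CD8 T gate, and held 1274 vehicle and 1355 RP-6306 cells. Gate cells with no Ly6c2 UMI that met the Ifit limit, 552 and 743, were the comparison cells and are called Ly6c2-negative. Because the rule used Ly6c2, levels of Ly6c2 and of the other rule genes, the share of positive cells and the contrast with Ly6c2-negative cells are descriptions.

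Ly6C is a small surface protein anchored by a lipid tail. In mice it is carried by monocytes, by a part of naive CD8 T cells and by much of the memory CD8 T cell pool, and interferons raise it. Memory CD8 T cells, including the virtual memory cells that form without foreign antigen, are known for the interleukin 15 receptor chain Il2rb, the transcription factor Eomes, the chemokine receptor Cxcr3 and stored Ccl5 message. Central memory cells keep lymph node homing receptors such as Ccr7, which naive cells also carry, while effector memory cells lose them.

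Ly6c2 (ENSMUSG00000022584; GRCm38 chr15:75108158-75111970, minus strand) lies beside a close paralog, Ly6c1 (ENSMUSG00000079018; chr15:75044018-75048830, minus strand). In the GENCODE transcripts 98.0% of the 293 aligned bases at their 3′ ends were identical, so a read from 1 of them can be placed on the other or dropped, and the labels do not describe how such reads were handled. Both promoters, from RefSeq on GRCm38.p6, are shown because the pair can be told apart there: 78.2% of 266 aligned bases were identical. Each runs from 250 bases before to 50 bases after the gene's start, and capitals mark the only match to the 4 motifs described next, a RUNX match that begins 179 bases before the Ly6c2 start.
Ly6c2, chr15:75111922-75112221, minus strand: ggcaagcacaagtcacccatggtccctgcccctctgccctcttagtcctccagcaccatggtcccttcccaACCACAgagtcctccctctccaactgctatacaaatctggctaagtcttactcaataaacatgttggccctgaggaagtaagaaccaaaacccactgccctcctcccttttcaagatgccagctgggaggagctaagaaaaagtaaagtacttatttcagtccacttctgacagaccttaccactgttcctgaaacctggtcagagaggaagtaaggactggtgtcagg
Ly6c1, chr15:75048788-75049087, minus strand: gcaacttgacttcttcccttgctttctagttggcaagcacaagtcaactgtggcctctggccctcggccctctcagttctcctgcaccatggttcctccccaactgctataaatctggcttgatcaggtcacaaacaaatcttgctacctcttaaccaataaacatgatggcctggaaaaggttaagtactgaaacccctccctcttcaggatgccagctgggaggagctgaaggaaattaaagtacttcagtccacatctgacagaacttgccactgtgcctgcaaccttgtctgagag

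The promoters of the 12 genes with the highest and the 12 with the lowest level relative to Ly6c2-negative cells, described further on, were searched on both strands for 4 motifs. These were the T-box letters GGTGTGA that Eomes and Tbx21 can bind, the RUNX letters TGTGGT, the interferon gamma activated site TTCNNNGAA and the interferon response element known as ISRE. Of the 10 high genes with a promoter in the table, 3 held the T-box letters, against 3.96% of all 27025 promoters, 3 held the RUNX letters, against 16.9%, and 1 held the interferon gamma activated site, against 8.47%. None of the 9 low genes with a promoter held any of the 4. Ccl5, Cd6, Gria3, Itgae and Ext1 had no entry. These are letter matches in short windows, over few genes, and no test was made. The 3 promoters with the T-box letters were chosen for display after the search, with T-box and RUNX matches in capitals.
Samd3, chr10:26229457-26229756, plus strand: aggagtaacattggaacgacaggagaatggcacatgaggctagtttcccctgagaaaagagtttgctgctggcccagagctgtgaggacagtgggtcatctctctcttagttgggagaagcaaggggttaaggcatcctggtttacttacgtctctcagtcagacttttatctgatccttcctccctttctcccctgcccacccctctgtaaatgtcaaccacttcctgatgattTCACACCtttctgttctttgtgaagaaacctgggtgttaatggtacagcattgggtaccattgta
Pglyrp1, chr7:18884440-18884739, plus strand: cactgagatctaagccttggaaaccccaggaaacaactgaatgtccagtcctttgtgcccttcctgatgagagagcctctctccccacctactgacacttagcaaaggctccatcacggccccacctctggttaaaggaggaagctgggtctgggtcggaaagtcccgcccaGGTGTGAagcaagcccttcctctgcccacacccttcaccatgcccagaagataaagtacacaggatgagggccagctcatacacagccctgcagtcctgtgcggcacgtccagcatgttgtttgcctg
Plac8, chr5:100572156-100572455, minus strand: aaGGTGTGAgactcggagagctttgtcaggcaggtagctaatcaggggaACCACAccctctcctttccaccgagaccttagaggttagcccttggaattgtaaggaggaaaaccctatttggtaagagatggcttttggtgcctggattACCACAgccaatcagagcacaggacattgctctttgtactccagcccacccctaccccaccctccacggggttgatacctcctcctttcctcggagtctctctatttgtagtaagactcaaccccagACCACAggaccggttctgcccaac

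Positive cells were 39.6% (36.9 to 42.3) of the CD8 T gate in the vehicle library and 29.6% (27.2 to 32.1) in the RP-6306 library. Ly6c2-negative cells, with no Ly6c2 UMI and within the Ifit limit, took the other direction, 43.3% (40.6 to 46.1) and 54.8% (52.1 to 57.5) of the gate. When every cell was thinned to 1500 UMIs before the gate, for a comparison at equal depth, positive cells were 20.4% (16.9 to 24.1) of 511 vehicle cells and 13.9% (11.3 to 16.9) of 611 RP-6306 cells. Among B cells, which should lack Ly6c2, 1.47% of 3132 vehicle and 0.886% of 3161 RP-6306 cells had 2 or more Ly6c2 UMIs, at median depths of 2310.5 and 2040 UMIs. The positive cells had medians of 3913 UMIs in the vehicle and 3729 in the RP-6306 library, and the Ly6c2-negative cells 3103.5 and 2816.

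The amount of Ly6c2 per positive cell was close in both libraries. The median was 4 UMIs in each, with quartiles of 3 and 6 in the vehicle and 2 and 6 in the RP-6306 library, and the highest cells held 39 and 16. Summed over the cells, Ly6c2 stood at 1110 CPM (UMIs scaled to the same total in every sum) in the vehicle and 1134 CPM in the RP-6306 library. Just inside the limit lay 123 vehicle and 110 RP-6306 cells with 2 UMIs, and just outside it 175 and 153 with 1 UMI. A further 23 and 33 Ly6c2-positive gate cells were left out for 2 or more Ifit1 and Ifit3 UMIs, with Ly6c2 at 1146 and 1207 CPM. Ly6c1 was at 8.22 and 7.03 CPM, far below Ly6c2, in the positive cells, while tumour cells held 97.4 and 56.8 CPM of Ly6c1 and 1.24 and 0.600 CPM of Ly6c2. Of the other Ly6 family genes, Ly6a, known as Sca-1, was at 102 and 92.0 CPM in positive and 81.6 and 37.0 CPM in negative cells, Ly6e at 366 and 446 CPM and 349 and 343 CPM, and 4 and 5 of the 9 family members listed had no UMI in the vehicle and RP-6306 positive cells.

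**Figure D1:**
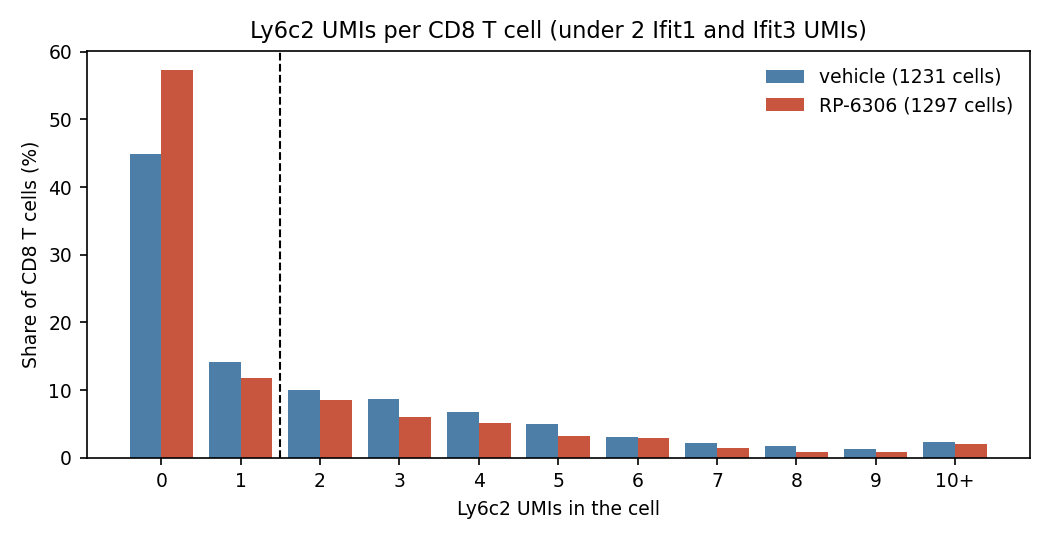
Ly6c2 UMIs per cell (x axis, cells with 10 or more together) against the share of CD8 T gate cells with under 2 Ifit1 and Ifit3 UMIs (y axis, percent), with 1 bar per library. The dashed line marks the limit of 2 UMIs; the RP-6306 library has the taller bar at 0 UMIs, with 743 cells, and the lower bars from 1 UMI on.

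The rule fixed the Cd3 and Cd8 message of every cell, so neither is evidence for the label, but it did not set which CD8 chain was seen. Both Cd8a and Cd8b1 were found in 57.5% of vehicle and 61.3% of RP-6306 cells, Cd8b1 alone in 39.1% and 33.4%, and Cd8a alone, the form that innate-like T cells carry, in 3.37% and 5.24%. Ncr1, which defines NK cells, had no UMI in either library, and the 6 NK markers summed to 18.4 CPM in the vehicle and 6.39 in the RP-6306 library. Zbtb16 and Slc4a10, which mark innate-like T cells, were at 0 UMIs in both. The gamma delta T cell list of 11 genes summed to 14.0 and 13.4 CPM, with 6 and 8 of its genes at 0. In cells where exactly 1 T cell receptor beta V gene was seen, 20 V genes occurred among 329 vehicle cells and 21 among 248 RP-6306 cells, and no single one dominated: the commonest, Trbv16 in the vehicle library, was in 12.8% (9.36 to 16.9), and in Ly6c2-negative vehicle cells the same gene was in 9.72% (6.87 to 13.3).

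The markers met the memory part of the working name only in part. Thinned to 1500 UMIs, 27.4% of vehicle and 25.4% of RP-6306 positive cells had a Ccl5 UMI, against 4.58% and 3.01% of Ly6c2-negative cells and 2.20% and 1.00% of B cells. Il2rb was seen in 19.0% and 16.9% of positive cells, against 8.06% and 8.36% of negative cells, and Eomes in 4.76% and 3.78%, against 0.916% and 1.10%. Il7r, the interleukin 7 receptor, was seen in 63.3% and 77.8% of positive cells, against 57.3% and 74.5% of negative cells. Tcf7 was seen in 47.2% and 49.4%, against 46.3% and 56.4%, and for both genes the intervals overlapped in each library. Cd44, the classical memory marker, was seen in 16.3% (13.2 to 19.8) and 15.4% (11.96 to 19.3) of positive cells, against 12.5% (9.80 to 15.5) and 4.25% (2.90 to 5.97) of negative cells and 17.4% and 11.2% of B cells. Its share was thus above that of negative cells beyond counting error in the RP-6306 library. In both libraries its interval overlapped that of B cells, 16.0 to 18.8 in the vehicle and 10.0 to 12.4 in the RP-6306 library. Ccl5, Il2rb and Eomes were each seen in no more than 27.4% of thinned positive cells, and Il7r and Tcf7 did not set these cells apart. The cells are called Ly6c2-positive CD8 T cells here, without a memory name.

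**Figure D2:**
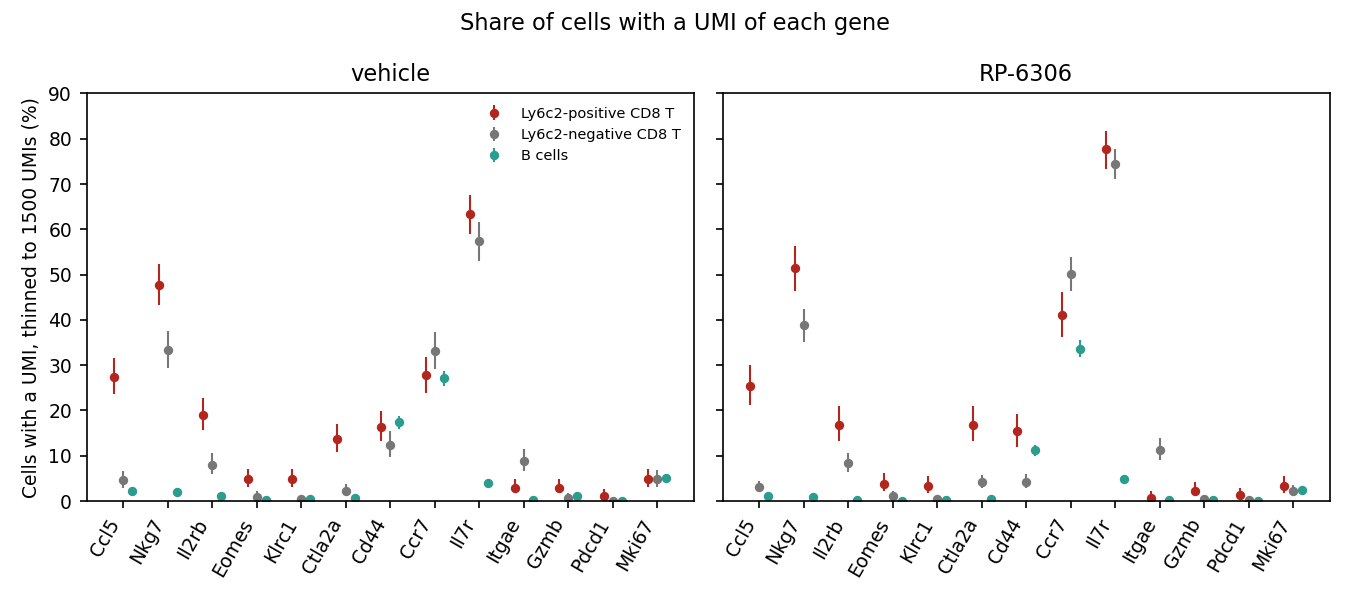
Share of cells with at least 1 UMI of each gene (y axis, percent) after thinning to 1500 UMIs, with the vehicle library at left and the RP-6306 library at right. Points are shares and bars exact 95% intervals; Ccl5 separates Ly6c2-positive cells (27.4% and 25.4%) from Ly6c2-negative cells (4.58% and 3.01%), whereas the shares for Ccr7 lie closer together.

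Relative to Ly6c2-negative cells of the same library, the Ly6c2-positive cells carried more memory, chemokine and killer cell receptor message and less of Ccr9, Itgae and Gria3. Values are sums over cells in CPM, vehicle first. Of 8770 genes measured in both libraries, 167 (1.9%) were at least 1.5-fold higher and 130 (1.48%) at least 1.5-fold lower in both, and the median log2 ratio of all genes was -0.04 and -0.05.

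Of 22 memory and effector-memory genes measured in both libraries, 11 were at least 1.5-fold higher in both and none lower, with median log2 ratios of 0.79 and 0.76. At any size 19 of the 22 were higher and 2 lower in both. In the vehicle library alone 16 of 24 were at least 1.5-fold higher and 1 lower. Ccl5, a chemokine that memory CD8 T cells store as message, was at 495 CPM in positive and 135 CPM in negative vehicle cells, and at 502 and 99.3 CPM in the RP-6306 library, log2 ratios of 1.87 (1.67 to 2.08) and 2.32 (2.12 to 2.56). Eomes, a T-box factor of memory CD8 T cells, was at 38.2 against 7.87 CPM and at 40.3 against 5.87 CPM. Positive cells were thus higher for both genes in each library, with intervals well above 0. Il2rb was at 141 against 60.7 CPM and 125 against 62.8 CPM, and the 2 chains of the interleukin 18 receptor went the same way, Il18r1 with log2 ratios of 1.02 and 1.17 and Il18rap with 2.33 and 1.65. The inflammatory chemokine receptors Cxcr3 and Ccr2, the integrin chain Itgb1, the protease Ctsw and the large scaffold Ahnak were also among the 11. Cd44 was at 134 against 87.2 CPM in the vehicle library but at 123 against 112 CPM in the RP-6306 library, where the interval of its log2 ratio, -0.15 to 0.40, held 0. The share of thinned cells with a Cd44 UMI gave another picture. It was 15.4% against 4.25% in the RP-6306 library, and 16.3% against 12.5%, with overlapping intervals, in the vehicle. The 2 measures of Cd44 thus disagree, and the cause was not tested.

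Of 14 measured cytotoxic genes, 8 were at least 1.5-fold higher in both libraries and none lower in both, with median log2 ratios of 0.89 and 0.90. In the vehicle library alone 3 of 17 were at least 1.5-fold lower, beside 623 of all 9204 genes. Gzma, a granzyme, and the chemokine Ccl4 had opposite signs in the 2 libraries, Gzma at 15 against 27.0 CPM in the vehicle and 29.4 against 4.97 CPM in the RP-6306 library. The levels were low. Gzmb, a granzyme that triggers death of target cells, was at 56.6 against 10.7 CPM and 25.6 against 3.16 CPM, and Gzmk at 25.6 against 3.94 CPM and 19.2 against 3.16 CPM. NK cells of the same libraries held 723 and 821 CPM of Gzmb. The pore protein Prf1 showed no difference beyond counting error, at 22.2 against 24.7 CPM and 14.7 against 14.4 CPM. Among 5 NK receptor genes measured in both libraries, 4 were at least 1.5-fold higher in both. They were led by Klrc1, which encodes the inhibitory receptor NKG2A, at 50.8 against 6.19 CPM and 38.3 against 4.06 CPM. In the vehicle library alone 5 of 8 were at least 1.5-fold higher and 2 lower, beside 567 and 623 of all 9204 genes. The 6 NK cell markers summed to less in positive cells, 18.4 against 67.5 CPM and 6.39 against 9.93 CPM.

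Over all genes that could be named, the 12 highest were Samd3, Chst11, Ccl5, Yes1, Runx2, Ctla2a, Pglyrp1, Hopx, Chsy1, Pde2a, Plac8 and Cd6. Samd3 led, at 56.6 against 5.62 CPM and 53.0 against 3.61 CPM, log2 ratios of 3.12 (2.40 to 4.43) and 3.55 (2.83 to 5.13), and it had UMIs in 89 vehicle and 59 RP-6306 positive cells. Chst11, which sulfates chondroitin chains, had log2 ratios of 2.12 and 2.08, and Chsy1, which builds those chains, 1.18 and 1.35. Yes1, a Src family kinase, was at 56.6 against 11.8 CPM and 65.2 against 17.2 CPM, and the transcription factor Runx2 at 113 against 26.4 CPM and 97.1 against 26.2 CPM. Ctla2a, a cysteine protease inhibitor of activated T cells, was at 143 against 27.0 CPM and 149 against 44.7 CPM. A pair of brakes on T cell receptor signals, Cd5 and Cd6, were the members of a list of 19 receptor signalling genes that were at least 1.5-fold higher in both libraries. Cd5 had log2 ratios of 0.85 and 0.80 and Cd6 of 1.14 and 1.07.

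The lowest genes were Gria3, Ccr9, Itgae, Rgcc, Ifngr2, Sgms1, Igfbp4, Patj, Ext1, Rflnb, St8sia1 and Ssbp2. Ccr9, a chemokine receptor of gut homing and of young T cells, was at 8.70 against 66.4 CPM and 17.9 against 89.0 CPM, log2 ratios of -2.80 (-3.73 to -2.21) and -2.25 (-2.94 to -1.74). Itgae, the CD103 integrin chain that naive mouse CD8 T cells and resident memory cells carry, was at 18.9 against 67.5 CPM and 18.5 against 83.5 CPM. Gria3, a glutamate receptor subunit, was at 12.1 against 64.1 CPM and 12.8 against 70.4 CPM. In all 3 genes the positive cells of both libraries lay well below the negative cells.

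The 2 chains of the interferon gamma receptor went opposite ways. Ifngr1, the chain that binds the cytokine, was at 766 against 446 CPM and 905 against 557 CPM, log2 ratios of 0.78 and 0.70. Ifngr2, the chain needed for signalling, was at 91.4 against 217 CPM and 171 against 373 CPM, log2 ratios of -1.24 (-1.50 to -0.99) and -1.12 (-1.33 to -0.93). B cells held 107 and 156 CPM of Ifngr2, so free RNA could add to the level in the positive cells, and its part was not tested.

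Lymph node homing and survival genes, called naive-type here, were mostly lower in the positive cells, few of them past 1.5-fold. Of 15 naive-type genes 11 were lower in both libraries, against 3165 of all 8770 genes. None was 1.5-fold higher in both and 2, Ccr9 and Igfbp4, were 1.5-fold lower, with median log2 ratios of -0.27 and -0.29. Ccr7 was lower in the positive cells, with log2 ratios of -0.47 (-0.65 to -0.30) and -0.40 (-0.55 to -0.26). Of 30 interferon-stimulated genes measured in both libraries none passed 1.5-fold in the same direction in both. In the vehicle library 1 of 30 was higher and 1 lower, and in the RP-6306 library 4 of 32 were higher and none lower. Of all genes measured within a library, 567 of 9204 were at least 1.5-fold higher and 623 lower in the vehicle. In the RP-6306 library these were 492 and 642 of 9072. The rule itself had removed cells high in 2 of the interferon-stimulated genes. Of 9 exhaustion genes measured in both libraries 2 were at least 1.5-fold higher in both, the inhibitory receptors Tigit and Cd160, and none lower. In the vehicle library 5 of 12 were higher, with a median of 0.51, and in the RP-6306 library 3 of 9, with a median of 0.01. Pdcd1, which encodes PD-1, was at 9.67 and 7.67 CPM in positive cells. Tox, a transcription factor, was lower than in negative cells, at 332 against 471 CPM and 333 against 464 CPM.

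**Figure D3:**
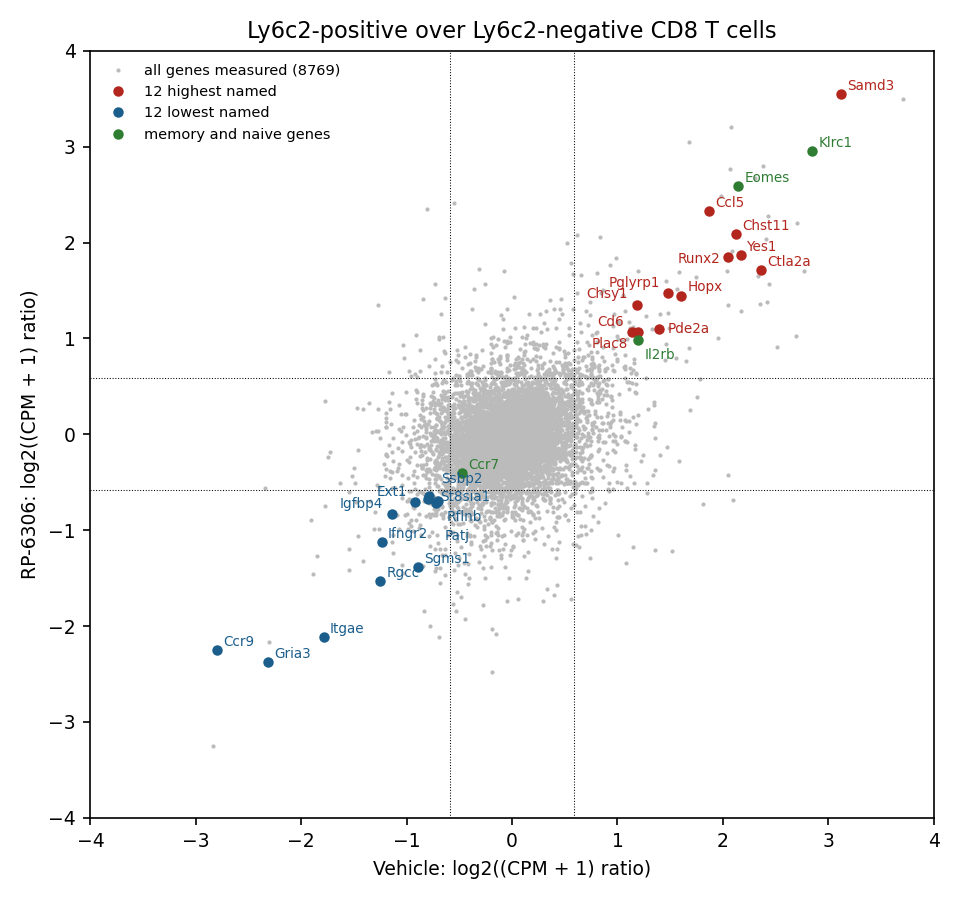
Each point is 1 of 8769 genes (Ly6c2 left out), with the log2 ratio of Ly6c2-positive over Ly6c2-negative CD8 T cells in the vehicle library (x axis) and in the RP-6306 library (y axis), on CPM + 1. Dotted lines mark 1.5-fold; Samd3 lies at 3.12 and 3.55 and Ccr9 at -2.80 and -2.25.

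These levels followed the amount of Ly6c2. In vehicle cells with 0, 1, 2, 3 to 4 and 5 or more Ly6c2 UMIs, Ccl5 was at 135, 340, 302, 462 and 629 CPM, and in RP-6306 cells at 99.3, 249, 323, 527 and 587 CPM. Eomes went from 7.87 to 46.0 CPM and from 5.87 to 57.3 CPM between the end classes. Itgae went the other way, at 67.5, 51.0, 35.5, 18.2 and 10.6 CPM in the vehicle and 83.5, 25.1, 39.1, 16.8 and 7.74 CPM in the RP-6306 library. Cells with 1 Ly6c2 UMI, just outside the limit, thus lay between the negative and the positive cells for Ccl5, Eomes and Itgae in both libraries. Depth moved with the classes, with medians from 3103.5 to 4156.5 UMIs in the vehicle and from 2816 to 4248 in the RP-6306 library, and its part was not tested.

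**Figure D4:**
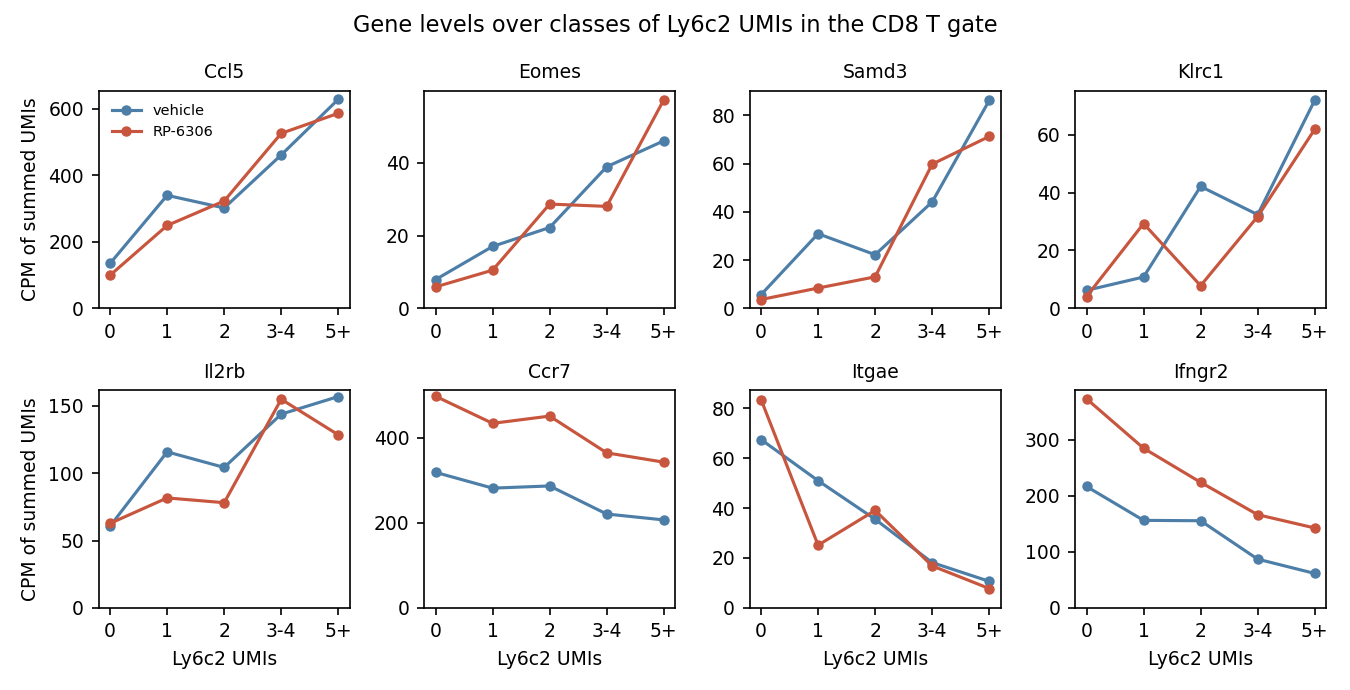
CPM of summed UMIs (y axis, from 0) of 8 genes in CD8 T gate cells grouped by their Ly6c2 UMIs (x axis), with 1 line per library and 1 point per class. Ccl5, Eomes, Samd3 and Klrc1 are highest in the class with 5 or more Ly6c2 UMIs (Ccl5 629 and 587 CPM), and Itgae and Ifngr2 are highest in the class with none.

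Among the Ly6c2-positive cells, Ccl5 was the immune gene that varied most. After thinning to 1500 UMIs its variance was 4.23 times its mean in the vehicle and 6.97 times in the RP-6306 library, while the median over 3880 genes was 1.03 in each. AY036118, Cmss1, Zc3h7a, Inpp4b, Malat1, Tmsb4x, Actb, Itga4, Bcl2, Dennd4a, Ikzf2, Myb, Pde7a and Sidt1 made up the rest of the top 15. Bcl2 protects T cells from death, Itga4 is an integrin chain of homing, and Myb and Ikzf2 are transcription factors.

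Positive cells with a Ccl5 UMI, 182 in the vehicle and 143 in the RP-6306 library, stood apart from the 322 and 258 without one, and since Ccl5 split them this is a description. Klrc1 was at 109 against 12.8 CPM and 92.1 against 6.13 CPM, Gzmb at 117 against 16.8 CPM and 56.3 against 7.15 CPM, and Il12rb2, a chain of the interleukin 12 receptor, at 51.2 against 7.21 CPM and 81.9 against 13.3 CPM. Ifngr2 was lower in the cells with Ccl5, at 31.7 against 131 CPM and 90.4 against 219 CPM. Cd44 was at 184 against 101 CPM and 176 against 90.9 CPM. The granzyme, Klrc1 and Il12rb2 message of the Ly6c2-positive cells thus lay mostly in the 36.1% and 35.7% of cells that held Ccl5. Ccr7 was at 201 against 247 CPM and 276 against 436 CPM. Cells with Ccl5 were deeper, with medians of 4314 against 3733.5 UMIs and 3978 against 3598.5.

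Between the treatments, the Ly6c2-positive cells of the RP-6306 library had more message of homing, survival and cytokine feedback genes and less of G2/M genes. Ly6c2-negative cells went the same way. The median log2 ratio in positive and negative cells was 0.23 and 0.20 for naive-type genes and 0.32 in each for traffic and adhesion genes. For cytokine feedback and survival genes it was 0.30 in each, with 3 of 10 and 2 of 9 at least 1.5-fold higher and none lower. In positive cells Ccl5, Nkg7, Eomes and Il2rb showed no difference beyond counting error, while some other memory genes moved. Of 8991 genes measured, 509 (5.66%) were at least 1.5-fold higher and 590 (6.56%) at least 1.5-fold lower, with a median log2 ratio of 0.04. In Ly6c2-negative cells 568 of 9259 (6.13%) were higher and 530 (5.72%) lower. Of the higher genes measured in both cell sets, 83 were shared, 17.4% of those in positive and 16.9% of those in negative cells; of the lower ones 111 were shared, 21.1% and 26.4%. Many genes past 1.5-fold rest on few UMIs: with at least 100 UMIs per gene, 95 were higher and 65 lower.

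Ccr7, the receptor that draws T cells into lymph nodes, was at 229 CPM in the vehicle and 376 CPM in the RP-6306 library, a log2 ratio of 0.71 (0.54 to 0.89). Il7r was at 761 and 1183 CPM, 0.64 (0.54 to 0.73), and Klf2, a factor that drives S1pr1, at 332 and 492 CPM, 0.57 (0.42 to 0.72). S1pr1, the receptor for exit from lymph nodes, was at 208 and 270 CPM. All 4 genes were higher in the RP-6306 library beyond counting error. In Ly6c2-negative cells the same genes were higher too, with log2 ratios of 0.64 for Ccr7, 0.87 for Il7r, 0.58 for Klf2 and 0.41 for S1pr1. Of the 15 naive-type genes 3 were at least 1.5-fold higher and none lower, with a median of 0.23, beside 0.04 for all genes; of 19 traffic and adhesion genes 4 were higher, Itga4 among them at 198 and 301 CPM, and 1 lower, with a median of 0.32.

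The 12 highest genes between the treatments were Cmtm6, Zfp36, Tob2, Socs1, Ifngr2, Cep97, Coro2a, Akap8l, Stxbp3, Smg5, Fgfr2 and Tmem106b. Socs1, which blocks signalling from cytokine receptors, was at 36.7 and 69.6 CPM, 0.90 (0.49 to 1.36), and Ifngr2 at 91.4 and 171 CPM, 0.89 (0.63 to 1.18). Zfp36, which speeds the decay of cytokine messages, was at 88.9 and 170 CPM, and Cmtm6, which keeps PD-L1 at the cell surface, at 35.3 and 68.4 CPM. Tob2, which slows proliferation through message decay, was at 43.5 and 83.1 CPM. The intervals of these 5 genes lay above 0. Ifngr2 (0.78) and Zfp36 (0.91) were as much higher in Ly6c2-negative cells, while Smg5, with 0.80 (0.34 to 1.31) in positive cells, had -0.24 (-0.66 to 0.18) there, a difference between the cell sets that was not tested. Of the Fgfr2 UMIs in the RP-6306 library 19.4% came from 1 cell, and without the cell with most UMIs in each library its log2 ratio was 0.52 in place of 0.80. Other early response genes split: Ier2 (174 and 288 CPM) and Btg2 (208 and 327 CPM) were higher, and Jun (213 and 146 CPM) and Fosb (42.1 and 16.6 CPM) lower.

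Interferon-stimulated genes were slightly higher. Of 31 interferon-stimulated genes 5 were at least 1.5-fold higher and none lower, beside 5.66% and 6.56% of all genes. Their median was 0.17, beside 0.04 for all genes, and Ifi213 was at 218 and 346 CPM. In Ly6c2-negative cells 1 of 31 was higher and 1 lower, with a median of 0.06. The rule had removed cells high in Ifit1 and Ifit3, 4.36% of vehicle and 7.60% of RP-6306 gate cells with 2 or more Ly6c2 UMIs. The part of this removal in the interferon values was not tested. Of 22 genes induced by interferon gamma 3 were higher, Socs1, Irgm1 and Gbp5, and none lower, with a median of 0.11. With cells thinned to 1500 UMIs that median was 0.0038, beside 0.05 for all genes, so the list as a whole was not higher at equal depth. The guanylate-binding protein Gbp5 was at 24.7 and 47.3 CPM, 0.91 (0.41 to 1.48). None of 15 MHC class I genes passed 1.5-fold, and their median was 0.19.

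Ccl5, Nkg7, Eomes and Il2rb showed no difference beyond counting error, but the memory list was mixed. Ccl5 was at 495 and 502 CPM, 0.02, Nkg7, a granule protein of killer cells, at 526 and 523 CPM, -0.01, Eomes at 38.2 and 40.3 CPM, 0.07 (-0.43 to 0.57), and Il2rb at 141 and 125 CPM, -0.17 (-0.44 to 0.10). Of 24 memory genes 8 were higher and 16 lower, beside 4953 and 4038 of all 8991 genes, with a median of -0.07. Past 1.5-fold 2 were higher and 3 lower, beside 5.66% and 6.56% of all genes. The lower ones included S100a6, a calcium-binding protein, at 353 and 204 CPM, which was also lower in Ly6c2-negative cells, at 370 and 221 CPM.

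**Figure D5:**
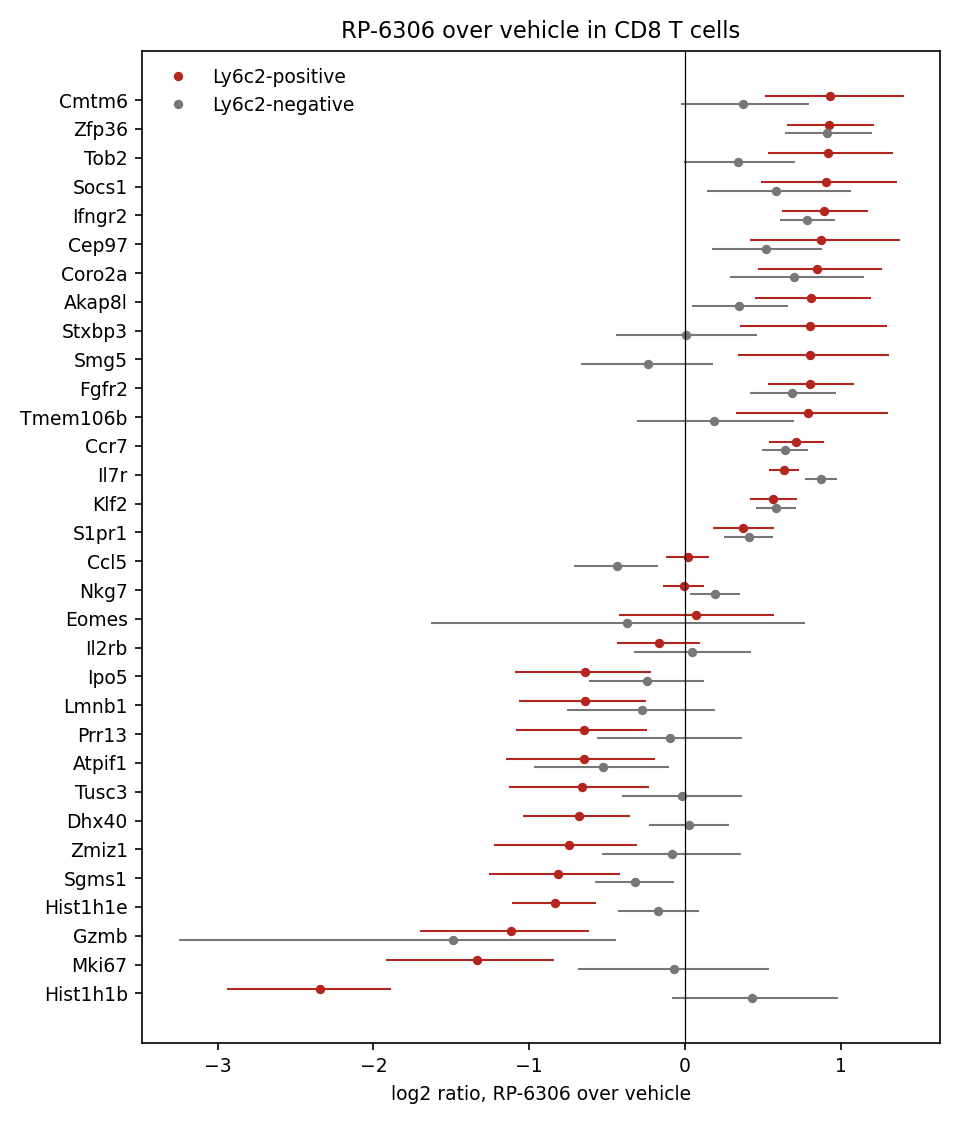
Log2 ratio of RP-6306 over vehicle (x axis) for named genes (y axis) in Ly6c2-positive and Ly6c2-negative CD8 T cells; points are ratios on CPM + 1 and lines exact 95% intervals without the added 1, for counting error only. Ccr7, Il7r, Klf2, Zfp36 and Ifngr2 lie right of 0 in both cell sets, and Hist1h1b (-2.34) and Mki67 (-1.33) lie left of 0 in positive cells, where a few cells hold much of their UMIs.

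The 12 lowest genes between the treatments were Hist1h1b, Mki67, Gzmb, Hist1h1e, Sgms1, Zmiz1, Dhx40, Tusc3, Atpif1, Prr13, Lmnb1 and Ipo5. Sgms1, which makes sphingomyelin, was at 78.3 and 44.1 CPM, -0.81 (-1.26 to -0.41), and at -0.32 (-0.58 to -0.07) in Ly6c2-negative cells. Dhx40, an RNA helicase family member, was at 108 and 67.1 CPM, -0.68 (-1.04 to -0.35), and at 0.03 (-0.23 to 0.29) in negative cells, a difference that was not tested. The import receptor Ipo5 was at 67.2 and 42.8 CPM and the ATPase inhibitor Atpif1 at 56.6 and 35.8 CPM.

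Genes of the G2/M phase were lower in the RP-6306 library, and a few cells held much of that message. Of 22 G2/M genes 17 were at least 1.5-fold lower and none higher, with a median of -1.04, and -0.33 in Ly6c2-negative cells. With cells thinned to 1500 UMIs the median in positive cells was -0.18. The S phase list did not move with it: of 24 genes 1 was at least 1.5-fold higher and 4 lower, with a median of 0.04, and sums of 849.8 and 850.4 CPM. Mki67, a protein of dividing cells, was at 64.3 and 24.9 CPM, and the linker histone Hist1h1b at 121 and 23 CPM, log2 ratios of -1.33 (-1.92 to -0.84) and -2.34 (-2.94 to -1.89). Of the Hist1h1b UMIs in the vehicle library 30.4% came from 1 cell. Without the 3 vehicle and 2 RP-6306 cells above 10000 UMIs, the G2/M median was -0.52, Mki67 -0.73, Hist1h1b -0.44 and Hist1h1e, another linker histone at 186 and 104 CPM, -0.12 in place of -0.83. The share of positive cells with at least 2 Mki67 and Top2a UMIs was 5.16% (3.40 to 7.47) in the vehicle and 4.49% (2.68 to 7.0) in the RP-6306 library, with overlapping intervals. Without those cells Gzmb, at 56.6 and 25.6 CPM with a log2 ratio of -1.12 (-1.70 to -0.62), went to -0.22.

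Markers of B cells, tumour cells and macrophages also had less message in the positive cells of the RP-6306 library, but not every other cell type followed. Regulatory T cell markers summed to 167 CPM in the vehicle and 183 CPM in the RP-6306 library, and endothelial markers to 134 and 144 CPM. The 14 B cell markers summed to 253 CPM in the vehicle and 176 CPM in the RP-6306 library, and the 12 tumour markers to 86.0 and 48.6 CPM. In Ly6c2-negative cells the tumour markers were at 118 and 56.4 CPM. Krt14 was at 0 in both libraries, as were C1qb and Adgre1 among the 12 macrophage markers, which summed to 79.3 and 58.1 CPM. Tumour cells held 202 and 263 CPM of Mki67 and 309 and 484 CPM of Hist1h1b, and the part of free tumour or B cell RNA in the division genes was not tested. Tumour cells held 1.29 and 0.907 CPM of Il7r and 0.761 and 0.575 CPM of Ccr7, and B cells held 36.2 and 61.3 CPM of Il7r. Thinned to 1500 UMIs, Ccr7 was seen in 27.1% and 33.6% of B cells, against 27.8% and 41.1% of positive cells. The part of free RNA in the Il7r and Ccr7 levels was not tested, and other T cells were not used as a reference.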

How the data were processed

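The deposited files are, per the labels, droplet single-cell libraries made with the SeekOne DD kit, 1 from the vehicle and 1 from the RP-6306 group. The values in the deposited matrices are counts, whole UMIs per gene and barcode, not normalized. Cell Ranger 2.1.1 and mm10 are named in the submitters' processing notes without their roles. Barcodes numbered 17313 in the vehicle and 15909 in the RP-6306 library, with 135415063 and 158073632 UMIs in all; 374 barcodes occur in both, 10 vehicle and 9 RP-6306 positive cells carry one of them, and none is positive in both. The positive cells held 2068677 and 1565055 UMIs.

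From the counts, UMIs were summed per cell set and library and scaled to CPM, with log2 ratios on CPM + 1 and exact conditional binomial 95% intervals without this 1. Genes needed 20 UMIs over both sums, and 1.5-fold was the limit of size. Shares have exact Clopper-Pearson intervals. Scrublet called 1 vehicle and 0 RP-6306 barcodes, so leaving out the top 6% of scores is an alternative only. B cells had at least 2 Cd79a and Ms4a1 UMIs and no Cd3. Tools were scanpy 1.11.5, pandas 2.3.3, scipy 1.17.1 and numpy 2.4.6 under Python 3.11.15. The sums were also run on simulated counts that held counting error only. That simulation left out differences between cells, so it could not check the intervals against them.

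The cells and the 33 gene lists were chosen with earlier results of these data known. Named are the 12 highest and 12 lowest genes per comparison that reached 50 CPM and 30 UMIs in the higher set, ranked by the smaller ratio of both libraries for positive over negative cells, the 15 most variable genes, up to 4 leads per list and a fixed set. Mitochondrial, ribosomal, antigen receptor and predicted genes, rule genes and genes over 5 times higher in B, tumour or macrophage cells were not named. Gene bounds are 1-based on GRCm38, where 32158 of 32285 gene IDs matched GENCODE. The labels do not say whether tumours were pooled. Some genes that the naming rule or the lists take are not reported here.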

Additional observations from a re-analysis of the deposited data

Results flagged for a closer look

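The RP-6306 over vehicle ratios of 1 named gene and 1 gene list had opposite signs in Ly6c2-positive and Ly6c2-negative CD8 T cells and were clear of 0 in both, which meant intervals without 0 for a gene and medians at least 0.1 from 0 for a list. Other opposite signs, such as those of Smg5 and Dhx40, did not meet this, and with 1 library per group no difference was tested. Gzma, a granzyme, had a log2 ratio of 0.927 in positive cells (15 and 29.4 CPM) and -2.23 in negative cells (27.0 and 4.97 CPM). The NK cell markers moved with it in the negative cells, with a sum of 67.5 CPM in the vehicle and 9.93 CPM in the RP-6306 library and a median of -2.50 over 3 measured genes, and their part in the Gzma difference was not tested. In the positive cells 58.1% of the vehicle and 37.0% of the RP-6306 Gzma UMIs came from 1 cell. The 22 genes induced by interferon gamma had a median log2 ratio of 0.113 in positive and -0.253 in negative cells, beside 0.04 for all genes in each. The positive-cell median was 0.0038 on thinning and 0.074 when scaled by the median ratio of genes. It was 0.071 as a mean over cells and 0.071 without dividing cells. In these settings it was under 0.1, so the list did not meet the limit.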

How the results depend on the processing

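No paired analysis was possible because there was 1 library per group, and leaving out a replicate was not possible either. The lower share of positive cells in the RP-6306 library kept its direction under the 5 other gates tried, of which a limit of 1000 UMIs per cell removed no positive cell. The counts between treatments, 509 higher and 590 lower, were 106 and 148 with a pseudocount of 10 CPM, 95 and 65 with at least 100 UMIs and 2197 and 2003 with no filter beyond 1 UMI. The G2/M median of -1.04 was -0.53 with 10 CPM, -0.70 with 100 UMIs, -0.18 with cells thinned to 1500 UMIs, -0.67 as a mean over cells and, in alternatives chosen after seeing the data, -0.52 without cells above 10000 UMIs and -0.53 without dividing cells. Lmnb1, a nuclear lamina gene, went from -0.64 to 0.38 on thinning; the cause was not tested. The counts of positive over negative cells, 167 and 130, were 79 and 29 with 10 CPM and 59 and 29 with 100 UMIs, and 111 were higher on thinning. The cytotoxic median in the RP-6306 library, 0.90, was 0.66 with 10 CPM, 0.67 with 100 UMIs and 1.13 with at least 3 Ly6c2 UMIs. The vehicle memory median, 0.79, was 0.59 on thinning. The NK receptor medians, 0.81 and 1.68, rest on 5 genes: the vehicle value was 0.47 with 10 CPM, 0.47 with 100 UMIs, 2.08 on thinning and 1.34 without the top Scrublet scores, and the RP-6306 value 0.72, 0.23 and, with at least 3 Ly6c2 UMIs, 0.81. Of the named gene values, 468 stayed within their main interval under these settings and 25 left it without changing sign. Part of the 468 could not change. Filters on the UMIs per gene leave the value of a gene as it is, and a limit of 1000 UMIs per cell removed no positive cell. Genes with under 20 UMIs over both sums were not measured at this depth.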
